A study of Mus musculus with 6 samples.

Results

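Synapse, ion channel and neuronal genes were followed in mouse dental pulp, the soft tissue inside the tooth, with and without deletion of the Polycomb gene Ring1b. The set held 43 genes chosen by symbol: synaptic adhesion molecules, a G protein and a metabotropic receptor, ligand-gated receptors, voltage-gated channels, vesicle proteins, postsynaptic scaffolds and neuronal cytoskeleton. Of these, 41 had at least 1 probe set among the 18193 genes named on the array, and Grin1 and Shank2 had none. Testing required detection, a Present call, on 3 or more of the 6 arrays. Of the 43 members 28 met it, among 12250 genes tested in all. The members were chosen with the difference between the groups already known, so their differences and calls are given here as a description and support no inference about the set.

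Transcript levels came from 3 control and 3 Ring1 deletion arrays, each labelled as a biological replicate, with RNA from pulp taken at postnatal day 17. All 6 samples lacked Ring1a (Ring1a-/-) and carried CreERT2, a Cre recombinase that acts only once a tamoxifen derivative is bound. Control samples were Ring1b flox/flox from mice given corn oil, and deletion samples were Ring1b cko/cko from mice given 4-hydroxytamoxifen at 40 mg/kg, on postnatal days 9 and 13. Drug and deletion differed together between the groups and cannot be told apart, and the absence of Ring1a is shared by both. The labels used here name no promoter that drives the recombinase and no cell type to which it is limited. Whether each array holds 1 animal or a pool is not stated, so the spread between replicates is the spread between these samples.

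Ring1a and Ring1b are the E3 ligases of Polycomb repressive complex 1, which places ubiquitin on histone H2A and keeps developmental genes silent. Many Polycomb targets outside the nervous system are genes of neurons, and their promoters are often rich in CpG, the dinucleotide that recruits part of the complex. The cell bodies of the sensory neurons that serve the tooth lie in the trigeminal ganglion. Their axons enter the pulp with Schwann cells, and which cells of a pulp sample a neuronal transcript comes from cannot be read from bulk RNA.

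Facts of the whole series bear on every value below. The deposited MAS5 signals are scaled to a common level, and an array detected from 53.8% to 57.9% of its 45101 probe sets. The tested probe set for Rnf2, the gene of Ring1b, had signals of 2693, 2439.6 and 2233 in control replicates 1, 2 and 3 and of 3165, 3549.6 and 2831 in deletion replicates 1, 2 and 3. The signal of this probe set was thus not lower on the deletion arrays. Rnf2 had 5 probe sets on the array, 2 of them kept, and only the brightest kept one is given here. The position of this probe set relative to the deleted part was not known here, so it does not check the labels. Ring1, the gene of Ring1a, was Present on no array. The tissue label was checked against markers: all 7 odontoblast markers on the array and all 6 markers of pulp mesenchyme were Present, with Dspp, the dentin matrix gene, between 31975 and 45677 on every array. Markers of dental epithelium were also abundant, with summed signals from 124167 to 171354 in control and from 53371 to 196422 in deletion.

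Neuronal genes were detected in both groups, and more of them in deletion. A probe set was called Present on at least 1 control array for 30 of the 41 members and on at least 1 deletion array for 35. Over all named genes of the array the shares were 71.5% in control and 72.6% in deletion. Calls were counted on the best-detected probe set of a gene in each group, which can differ between groups. More Present calls in deletion than in control were found for 14 members and fewer for 1, the potassium channel Kcnc1, while 21 had equal numbers above 0. Over the array, 1430 genes had more Present calls in deletion and 1255 had fewer. Gnao1, Nrxn2 and Nefm were Present on no control array and on all 3 deletion arrays, a pattern that 107 genes of the array (0.588%) had. Grik5, Kcnd2, Scn3a, Snap25 and Syn1 were Present on no array. Snap25 and Syn1 encode core proteins of the presynaptic terminal.

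**Figure D1:**
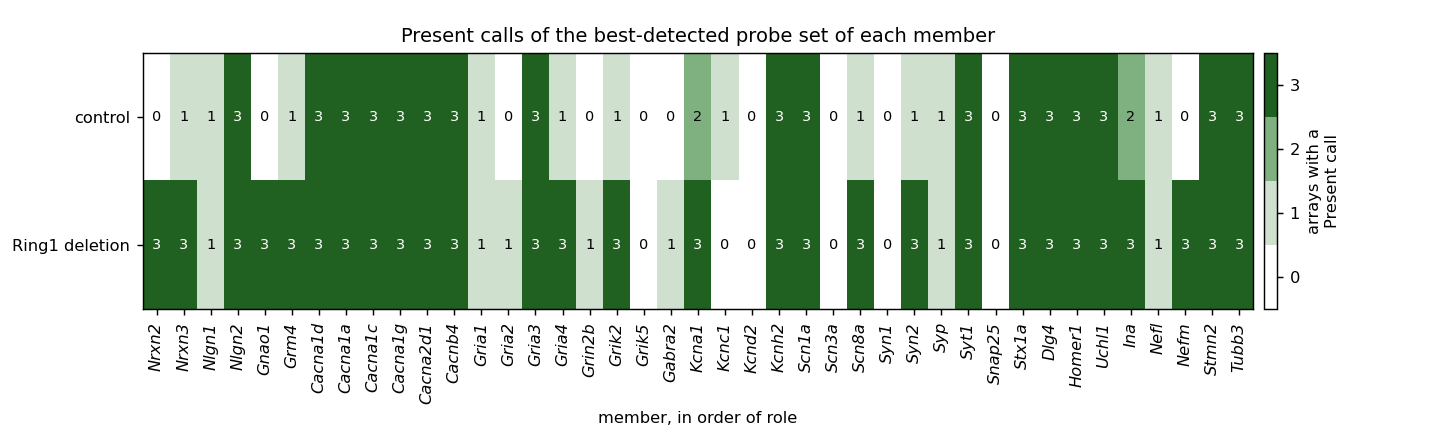
Number of arrays, of 3 in each group, with a Present call for each member by its best-detected probe set in that group. That probe set can differ between groups, as for Cacna1a. Nrxn2, Gnao1 and Nefm go from 0 in control to 3 in deletion, all 6 calcium channel genes are at 3 in both groups, and Snap25 is at 0 in both.

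Among the 28 tested members, 9 were called higher and 1 lower in deletion by the fit across all genes (limma, adjusted p under 0.05). Of all 12250 genes, 2.65% were called in either direction, 1.89% higher and 0.759% lower. The 9 were Gnao1, Nrxn2, Grm4, Cacna1d, Cacna1g, Cacna2d1, Kcna1, Ina and Uchl1, and the 1 called lower was Tubb3. Every role class held a member with a higher mean in deletion, and the calls lay in adhesion, G protein signalling, calcium and potassium channels and cytoskeleton. No ligand-gated receptor, sodium channel, vesicle protein or postsynaptic scaffold was called. The median log2 difference of the 28 was 0.67, against 0.02 over all genes tested. Without the detection condition, 34 of the 41 members had a higher mean in deletion, beside 54.1% of the 18193 genes, and their median was 0.58 beside 0.04.

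The calls depended on single arrays. The number called higher was 4 without control replicate 1, control replicate 3 or deletion replicate 1, and 3 without control replicate 2, deletion replicate 2 or deletion replicate 3. Only Gnao1 and Grm4 were called in all 6 such fits, and Cacna2d1 was called in 5, the exception being the fit without control replicate 2. Nrxn2, Cacna1d and Cacna1g were called in none of the 6. The direction of all 10 called members was the same in all 6. Blocking by replicate number, a pairing that the labels do not state, called the same 10 members and no other. Over all genes this block called 6.44% higher and 4.19% lower. Without both replicate 1 arrays 7 members were called higher.

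**Figure D2:**
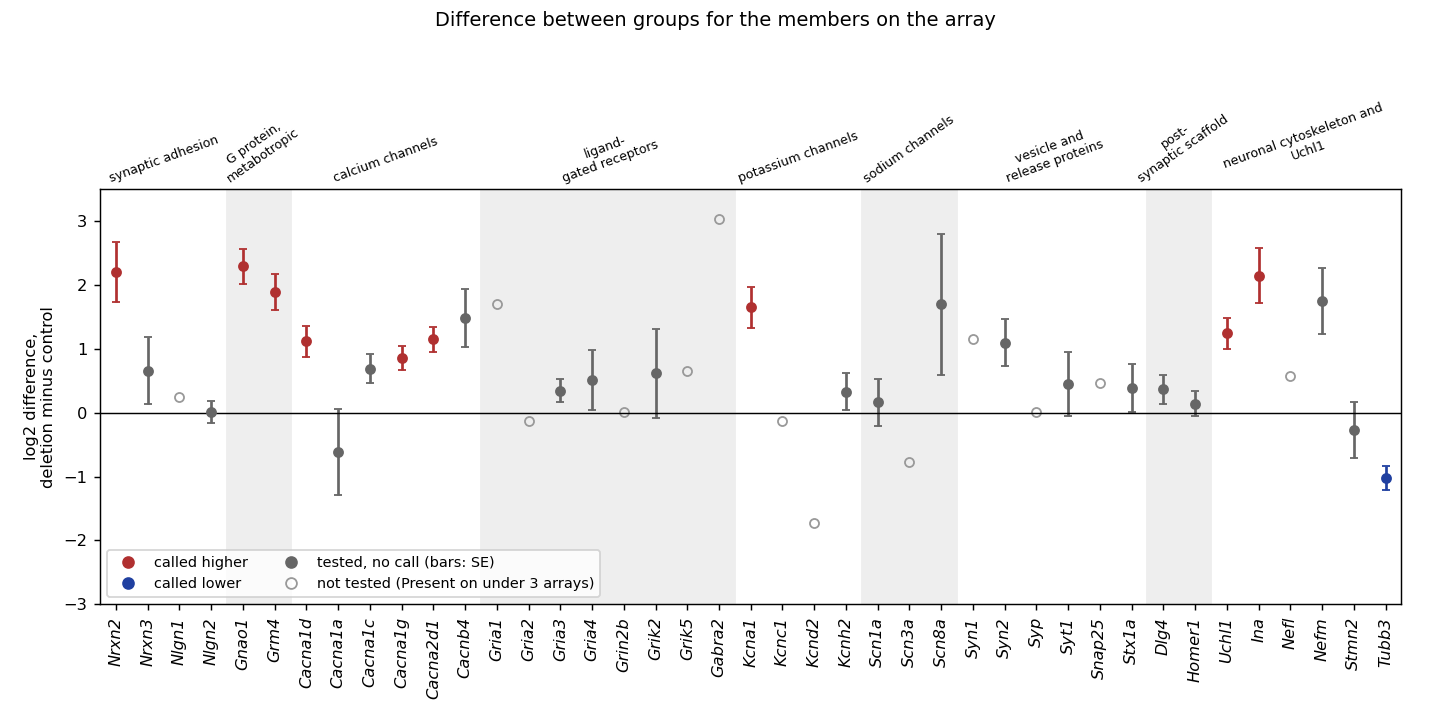
Difference of mean log2 signals, deletion minus control, for the 41 members on the array in order of role, with the standard error of the fit for the 28 tested. The 9 members called higher lie between 0.85 and 2.29 and Tubb3 lies at -1.03; open circles are members Present on fewer than 3 arrays, which were not tested.

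Gnao1 and Grm4, the 2 signalling members, were both called higher. Gnao1 encodes the alpha subunit of Go, the main G protein of neurons, through which many receptors act on calcium and potassium channels. Its signals were 64.4, 60.3 and 67.9 in control replicates 1, 2 and 3 and 393, 249.6 and 318 in deletion replicates 1, 2 and 3. The groups did not overlap, and no control array had a Present call. The undetected control level was taken at its signal. Deletion was then at least 4.91-fold higher (mean log2 signal of 6.003 ± 0.08 against 8.30 ± 0.33, SD over 3 arrays each). Here and below, at least covers a control level under its signal and leaves out the spread between arrays. The other 2 Gnao1 probe sets were Present on no array. Grm4, a metabotropic glutamate receptor that couples to inhibitory G proteins, had signals of 114, 164 and 143 in control and of 379, 495 and 726 in deletion. The lowest deletion array lay above the highest control array, a 3.70-fold difference (2.29 ± 0.27 for Gnao1 and 1.89 ± 0.29 for Grm4, log2 difference ± SE). Grm4 was Present on 1 control array and on all 3 deletion arrays. Tissue RNA cannot tell more cells of a type from more RNA per cell, for these and all other members.

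The promoters of the called members were set beside their values, because a promoter sequence does not enter the signals. RefSeq windows of 300 bases, from 250 before to 50 after the start (GRCm38.p6), were matched by symbol for 29 of the 43 members, with the start richest in CpG taken where a gene had several. Among the 5 matched members called higher, Gnao1, Cacna1d, Cacna2d1, Ina and Uchl1, the window held a median of 42 CpG. Nrxn2, Grm4, Cacna1g and Kcna1, also called higher, had no matched window. The 14 matched members tested without a call had a median of 20, with a range from 5 to 57 for Cacna1c. The 9 untested ones had a median of 26 and a range from 10 to 41. Over 9913 tested genes of the array the median was 22, over 172 of all genes called higher 21 and over 74 called lower 21. Cacna1d had the most CpG of any matched member, 63, and Uchl1, also called higher, had 9, so the 5 do not share a CpG-rich window. These are counts on few genes with no test. The 250 bases before the start are shown for Gnao1 (chr8:93810588-93810837, plus strand), for Cacna1d as the richest (chr14:30353487-30353736, minus strand), for Uchl1 as the poorest of the 5 (chr5:66675871-66676120, plus strand) and for Tubb3, the member called lower (chr8:123411303-123411552, plus strand). They run 5′ to 3′ on the gene's strand, and capitals mark CpG.
Gnao1: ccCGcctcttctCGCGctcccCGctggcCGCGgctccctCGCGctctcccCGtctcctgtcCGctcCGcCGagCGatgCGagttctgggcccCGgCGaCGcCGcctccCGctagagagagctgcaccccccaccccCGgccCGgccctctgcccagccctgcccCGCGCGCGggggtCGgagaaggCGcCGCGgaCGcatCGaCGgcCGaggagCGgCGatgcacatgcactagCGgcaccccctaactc
Cacna1d: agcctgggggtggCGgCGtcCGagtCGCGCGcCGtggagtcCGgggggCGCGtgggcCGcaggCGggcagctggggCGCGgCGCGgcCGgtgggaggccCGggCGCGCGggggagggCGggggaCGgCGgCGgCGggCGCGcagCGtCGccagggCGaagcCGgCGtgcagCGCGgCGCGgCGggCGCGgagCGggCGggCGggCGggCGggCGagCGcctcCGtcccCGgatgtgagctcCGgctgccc
Uchl1: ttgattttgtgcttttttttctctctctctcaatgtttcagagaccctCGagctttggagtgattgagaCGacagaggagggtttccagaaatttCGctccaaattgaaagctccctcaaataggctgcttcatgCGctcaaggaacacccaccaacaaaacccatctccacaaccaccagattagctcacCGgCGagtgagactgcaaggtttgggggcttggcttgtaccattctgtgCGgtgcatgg
Tubb3: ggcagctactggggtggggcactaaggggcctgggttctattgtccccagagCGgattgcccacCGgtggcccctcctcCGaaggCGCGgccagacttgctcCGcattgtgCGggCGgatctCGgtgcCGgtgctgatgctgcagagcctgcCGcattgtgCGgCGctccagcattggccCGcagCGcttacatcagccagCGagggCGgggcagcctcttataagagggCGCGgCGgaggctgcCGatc
The stretches shown hold 36 CpG for Gnao1, 50 for Cacna1d, 7 for Uchl1 and 21 for Tubb3.

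**Figure D3:**
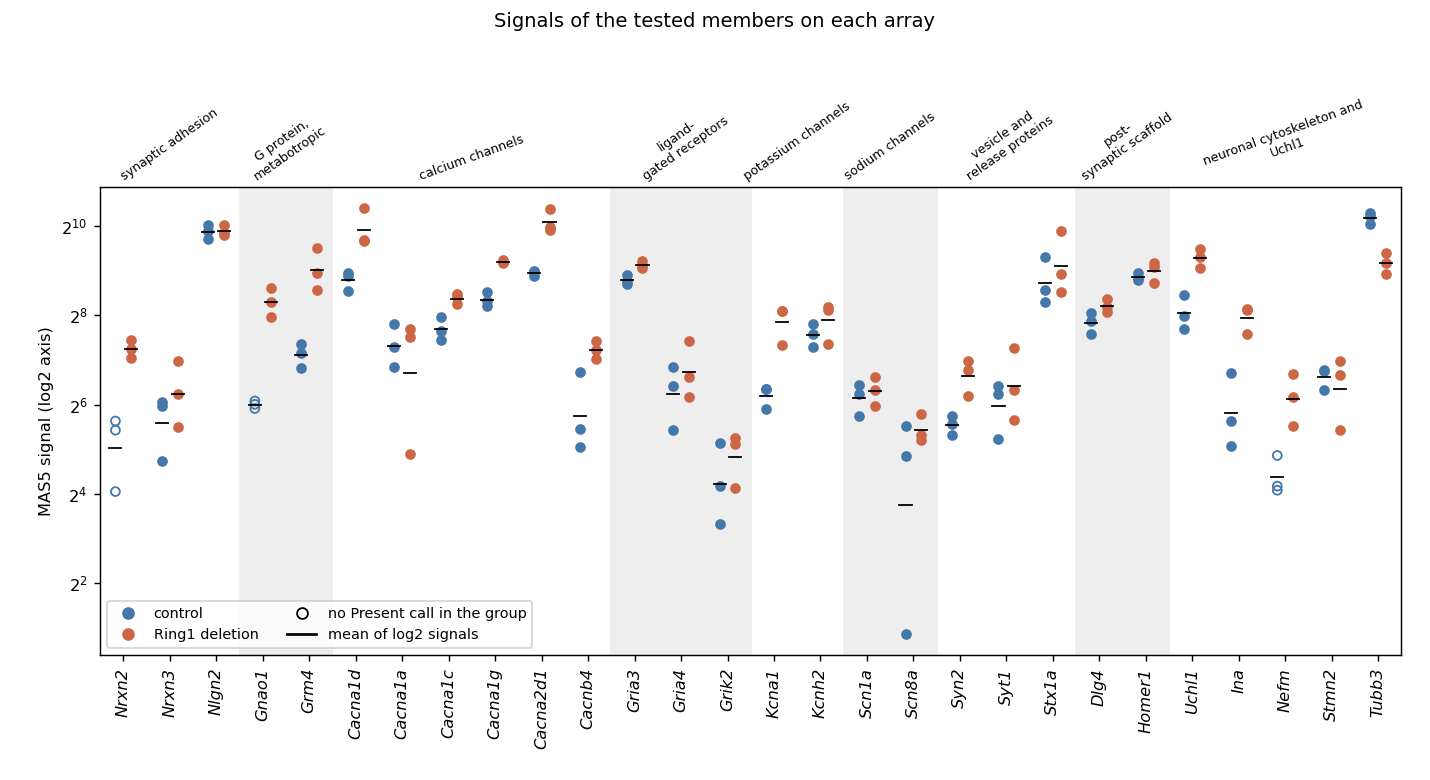
MAS5 signal on a log2 axis for the 28 tested members, with 3 control and 3 deletion arrays each; open circles mark a group without a Present call and bars the mean of log2 signals. Control and deletion do not overlap for 16 members, among them Gnao1, Grm4 and Tubb3, while Nlgn2 and Homer1 lie at one level in both groups. Deletion lies above control in 15 of the 16 and below in 1, patterns with shares of 12.2% and 8.64% over all genes tested.

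Calcium channel genes were detected throughout, and each of the 6 members but Cacna1a was Present on all arrays of both groups by 1 probe set. Cacna1a was Present on all 3 control arrays by 1 probe set and on all 3 deletion arrays by another. Cacna2d1 encodes the alpha-2-delta subunit that carries the pore-forming subunits to the membrane. It had signals of 499.7, 472 and 508 in control and of 1333, 1009.9 and 965 in deletion, a 2.21-fold difference. Cacna1d, the pore of the L-type channel Cav1.3, had 498, 374 and 470.5 in control and 1347, 822 and 813 in deletion (2.17-fold). Cacna1g, the pore of a T-type channel that opens at low voltage, had 367, 322 and 295 in control and 579, 589 and 603 in deletion (1.81-fold). In each of these 3 genes the control and deletion arrays were apart, with deletion replicate 1 the highest array for Cacna2d1 and Cacna1d. Their log2 differences were 1.15 ± 0.19, 1.12 ± 0.24 and 0.85 ± 0.19 (SE).

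The other calcium channel members were not called. Cacna1c, the pore of the L-type channel Cav1.2 of muscle and many other cells, had 249.6, 202 and 174 in control and 339.9, 357 and 304 in deletion. Cacnb4, a cytoplasmic beta subunit, had 33.3, 43.6 and 106 in control and 172, 150.1 and 130.2 in deletion. Neither overlapped between groups, but control replicate 3 of Cacnb4 stood near the deletion arrays, and without it Cacnb4 was called (log2 difference 1.97). With all arrays the differences were 0.69 ± 0.23 for Cacna1c and 1.48 ± 0.45 for Cacnb4. A second kept Cacnb4 probe set overlapped between groups, with a difference of 1.02. Cacna1a, the pore of the P/Q-type channel of nerve terminals, had 157, 114 and 225 in control and 183, 29.6 and 209 in deletion. Deletion replicate 2 alone was far below the rest. The difference was -0.61 ± 0.67, and 0.30 without that array. A second Cacna1a probe set had 78.85, 62.1 and 69.6 in control and 154, 104 and 85.4 in deletion, with no overlap and the opposite sign.

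Of the 4 potassium channel members, Kcna1 was called higher. Kcna1 encodes Kv1.1, a channel of axons that limits repetitive firing. Its signals were 59.7, 81.3 and 81.2 in control and 163, 272 and 274 in deletion, a 3.14-fold difference (1.65 ± 0.32 on the log2 scale, SE), with a Present call on 1 control array and all 3 deletion arrays. All 3 kept Kcna1 probe sets showed separate groups. Kcnh2, the ERG channel, had 223, 191 and 158 in control and 278, 164 and 294 in deletion, groups that overlapped. Kcnc1 and Kcnd2, channels of fast-spiking and somatodendritic neuronal membranes, were not tested, and Kcnd2 was Present on no array.

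No sodium channel was called. Scn1a, a pore-forming subunit of neurons, was Present on all 6 arrays at 53.9, 86.9 and 75.9 in control and 98.9, 80.4 and 62.8 in deletion, with overlapping groups. Scn8a, the channel of nodes of Ranvier, had 1.82, 28.8 and 45.9 in control and 36.8, 40.2 and 55.3 in deletion. Its log2 difference of 1.70 ± 1.10 rests on control replicate 1: without that array it was 0.26. Scn3a was Present on no array.

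Of the 4 synaptic adhesion members, Nrxn2 was called higher. Neurexins sit on the presynaptic side and bind neuroligins across the cleft. Nrxn2 had 43.1, 49.7 and 16.6 in control, with no Present call, and 174, 153 and 131 in deletion, with 3. It was at least 4.61-fold higher (2.21 ± 0.47, SE, on the log2 scale), and the next Nrxn2 probe set was Present on no array. Nrxn3 had 26.7, 66.7 and 62.5 in control and 45.6, 75.9 and 127 in deletion, so the groups overlapped. Nlgn2, the neuroligin of inhibitory synapses, was level at 840.3, 954 and 1037 in control and 899, 917 and 1038 in deletion, a log2 difference of 0.01 ± 0.17. A second kept Nlgn2 probe set had separate groups, with deletion higher by 0.18. Nlgn1, of excitatory synapses, was Present on 1 array of each group and was not tested.

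No ligand-gated receptor was called. Gria3, an AMPA-type glutamate receptor subunit, had 438, 478 and 419 in control and 592, 536 and 564 in deletion, without overlap and with a difference of 0.34 ± 0.18 (log2, SE). A second kept Gria3 probe set overlapped, with a difference of 0.05. Gria4 had 43.01, 115 and 85.7 in control and 72.0, 98.3 and 173 in deletion. Grik2, a kainate receptor subunit, had 10.1, 35.3 and 18.2 in control and 17.5, 35.04 and 38.1 in deletion. Both overlapped between groups and were Present on 1 control and 3 deletion arrays. Gria1, Gria2, Grin2b, Grik5 and Gabra2 were not tested. Gabra2, a GABA-A receptor subunit, had signals of 8.20, 2.56 and 1.13 in control, all below the lowest signals of detected probe sets, and 26.3, 25.7 and 19.2 in deletion. With control set at those lowest signals, the deletion mean was 1.83-fold higher. Only 1 deletion array had a Present call, so this fold is no lower bound. The other 4 Gabra2 probe sets were Present on no array.

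Vesicle proteins and scaffolds of the synapse showed no call. Syn2, a synapsin that tethers vesicles, had 47.8, 53.9 and 39.9 in control and 125, 73.8 and 109 in deletion, groups that did not overlap (1.10 ± 0.37, log2 difference and SE). Syt1, the calcium sensor of release, had 37.6, 75.9 and 85.8 in control and 50.7, 81.0 and 154 in deletion. Stx1a, a SNARE protein of the plasma membrane, had 316, 379 and 637 in control and 367, 489.7 and 951 in deletion. For both genes the groups overlapped and replicate 3 was the highest array in each group. Dlg4, the scaffold PSD-95, had 267, 191 and 235 in control and 328, 290.4 and 268 in deletion, with control replicate 1 just under deletion replicate 3 and the groups barely apart. Homer1, which links metabotropic receptors to calcium stores, had 494, 455 and 441 in control and 576, 426 and 540.5 in deletion. Syp, Snap25 and Syn1, which mark presynaptic terminals, were not tested for want of Present calls.

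Neuronal cytoskeleton genes went in both directions. Ina encodes alpha-internexin, a neuronal intermediate filament. It had 49.6, 105 and 33.5 in control and 193, 281 and 279 in deletion, a 4.43-fold difference (2.15 ± 0.43, log2, SE), and its second kept probe set also had separate groups, with a difference of 1.31. Nefm, the medium neurofilament subunit, had 18.1, 29.1 and 17.0 in control, with no Present call, and 45.7, 103 and 72.3 in deletion, with 3. It was at least 3.36-fold higher and was not called (1.75 ± 0.51). Nefl, the light subunit and the nearest protein-coding neighbour of Nefm, was Present on 1 array of each group. Uchl1, a ubiquitin hydrolase abundant in neurons and neuroendocrine cells, had 349.8, 253 and 208 in control and 632, 536 and 721 in deletion (2.37-fold, 1.24 ± 0.24 on the log2 scale). Stmn2, a microtubule regulator of growing axons, overlapped at 81.0, 110.5 and 109 in control and 42.97, 127 and 101 in deletion.

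Tubb3, the beta-tubulin used as a marker of neurons, was the only tested member called lower. Its signals were 1259, 1064 and 1195 in control and 487, 575 and 675 in deletion, a difference of -1.03 ± 0.19 (log2, SE), with control 2.04-fold above deletion. No array of one group reached the range of the other. It was called in 1 of the 6 fits that left out an array, the one without deletion replicate 3. Stmn1, a microtubule-destabilising protein of neurons and of dividing cells and no member, was lower as well: it had 10376, 10435 and 11427 in control and 4383, 5612 and 4256 in deletion (limma adjusted p = 0.00852, and 0.0501 without control replicate 2).

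Several members had more than 1 probe set to compare. Of the 113 probe sets of members, 43 were kept and 51 were Present on no array. In 11 members with several kept probe sets, 26 in all, every one was higher in deletion for 7 members and signs differed for 4. The 4 were Cacna1a, Cacna1d, Cacna2d1 and Homer1. The second Cacna1d probe set had 63.3, 74.8 and 55.6 in control and 43.5, 53.9 and 103 in deletion, so the call of Cacna1d rests on 1 probe set. Cacna2d1 had 3 kept probe sets with separate groups and higher deletion signals, and 1 more with a difference of -0.50 that overlapped. All kept probe sets of Cacna1c, Kcna1 and Ina had separate groups.

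**Figure D4:**
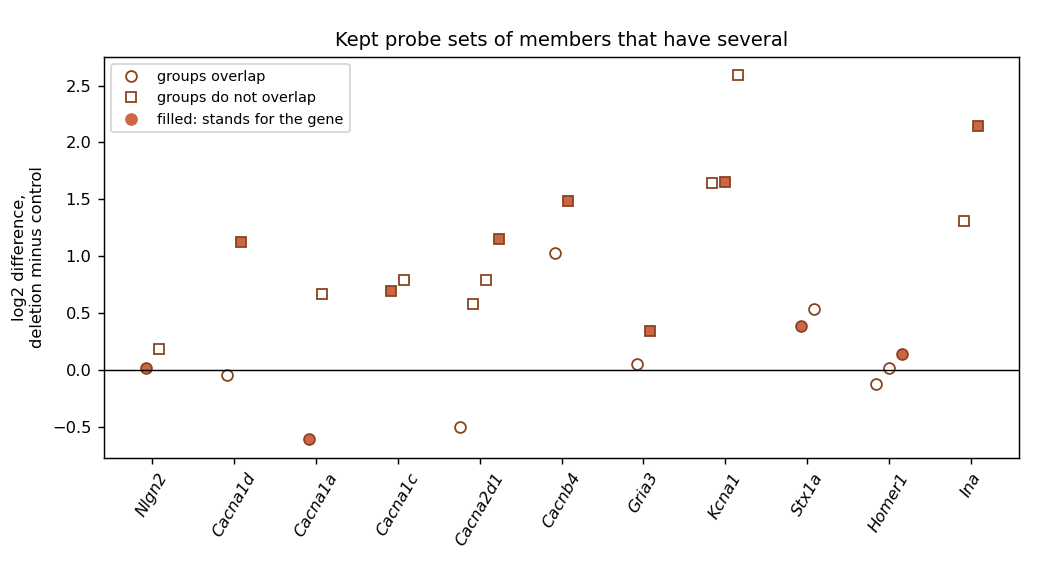
Log2 difference, deletion minus control, of every kept probe set of the 11 members that have several; filled symbols stand for the gene in the fit and squares mark probe sets whose groups do not overlap. All symbols of Kcna1 and Ina lie above 1, and those of Cacna1a lie on both sides of 0.

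Folds between levels that were detected in both groups are no bounds. Of the 28 tested members, 16 were Present on all 6 arrays, of which 4 were called higher, Cacna1d, Cacna1g, Cacna2d1 and Uchl1, and 1 lower. Over all genes tested, 1.89% were called higher and 0.759% lower. Refitted over genes Present on all 6 arrays, 2 members were called higher, Cacna2d1 and Uchl1, and Tubb3 lower. That refit called 137 of all its genes higher and 67 lower. What share these are of the genes Present on all 6 arrays was not counted. Separate groups were seen in 15 tested members with deletion above control and in 1 with deletion below. Over all genes tested these patterns had shares of 12.2% and 8.64%. The 6 uncalled members with separate groups were Cacna1c, Cacnb4, Gria3, Syn2, Dlg4 and Nefm.

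Genes of the same families outside the set were tested beside the members. Across 6 lists of other receptors, channels, vesicle proteins, adhesion and scaffold genes, cytoskeleton genes and G protein subunits, 165 genes were on the array and 101 were tested. Of these, 4 rose and 1 fell, or 3.96% and 0.990%, where all genes of the array had 1.89% and 0.759%. A higher mean in deletion was found for 71.3% of the 101 and for 52.5% of all genes tested, and the median log2 difference of the 101 was 0.16. With the replicate block 12 of the 101 rose and 3 fell, where that block called 6.44% of all genes higher and 4.19% lower. Without control replicate 2 or deletion replicate 2 a single gene rose. The channel list had the highest median, 0.60 over 19 tested genes, of which 17 had higher means in deletion and none was called. Medians of the other 5 lists ran from -0.0017 for G protein subunits to 0.24 for adhesion and scaffold genes. The detection condition can admit a gene through the group where it is high. Without it the median of the channel list was 0.41 over 33 genes, of which 26 had higher means in deletion. Of the 165 genes, 67.9% had higher means, beside 54.1% of all genes named on the array.

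Dpysl4, a collapsin response mediator protein of growing axons, rose from 201, 295 and 236 in control to 1323, 783 and 779 in deletion (3.86-fold, limma adjusted p = 0.00756). Syt7, a slow calcium sensor of exocytosis in many cell types, rose from 107, 146 and 186 to 507, 588 and 316 (3.18-fold, limma adjusted p = 0.026). Dpysl4 was called in all 6 fits that left out an array. Dnm1, the neuronal dynamin of endocytosis, rose 1.83-fold from 934, 799 and 727 to 1531, 1404 and 1553 (limma adjusted p = 0.0328). Gnb4, a G protein beta subunit, rose 1.92-fold from 458, 401 and 423 to 880.4, 922 and 673 (limma adjusted p = 0.04). The calls of Syt7, Dnm1 and Gnb4 ended without control replicate 2, at limma adjusted p of 0.104, 0.161 and 0.185. The same happened when deletion replicate 1, or deletion replicate 2, was left out. The call ended also for Syt7 without control replicate 1, for Dnm1 without control replicate 3 or deletion replicate 3, and for Gnb4 whichever array was left out. The Gnb4 call ended also under 5 settings that keep all 6 arrays, among them quantile normalization (0.0616) and the mean of its probe sets, where the log2 difference was 0.53 (0.257). With the mean of probe sets Syt7 was at 0.0569, and with no intensity trend Dnm1 was at 0.0598.

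Other genes of these lists with the smallest p did not pass. Cacna1h, a T-type channel like Cacna1g, had 145, 167 and 47.9 in control and 523, 347 and 333 in deletion (limma adjusted p = 0.0651; blocked by replicate number, 0.00464). Chrna7, a nicotinic receptor subunit, had 114, 189.9 and 218 in control and 309, 660.2 and 845 in deletion (limma adjusted p = 0.0565; blocked by replicate number, 0.00092). Grik1, a kainate receptor subunit, went the other way, with 94.3, 148 and 152 in control and 73.3, 48.8 and 51.5 in deletion (limma adjusted p = 0.129). Cntn1, an adhesion protein of axons, was Present on no control array and had 119, 164 and 142 in deletion, at least 3.05-fold higher (limma adjusted p = 0.124; blocked by replicate number, 0.0411). Rbfox3, known as the neuronal marker NeuN, had 79.4, 114 and 129 in control and 161, 235 and 255 in deletion (limma adjusted p = 0.128; blocked by replicate number, 0.03).

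Regulators of neuronal genes were measured beside them. REST is a repressor of neuronal genes outside the nervous system, and its gene Rest had 892, 1186 and 1437 in control and 1450.0, 1413 and 1176 in deletion, groups that overlapped (limma adjusted p = 0.711). None of 8 tested genes of REST and its corepressors changed in limma, with or without the replicate block. Of 14 neurogenic transcription factors, 12 were on the array, 3 were tested and Phox2a rose. Phox2a, a homeobox factor of autonomic neurons, had 43.6, 47.6 and 42.5 in control, with no Present call, and 233, 360.3 and 174 in deletion. It was at least 5.49-fold higher (limma adjusted p = 0.00847), and its call held in all 6 fits that left out an array. Isl1 and Pou4f1, factors of sensory neurons, overlapped between groups (limma adjusted p = 0.715 and 0.82).

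**Figure D5:**
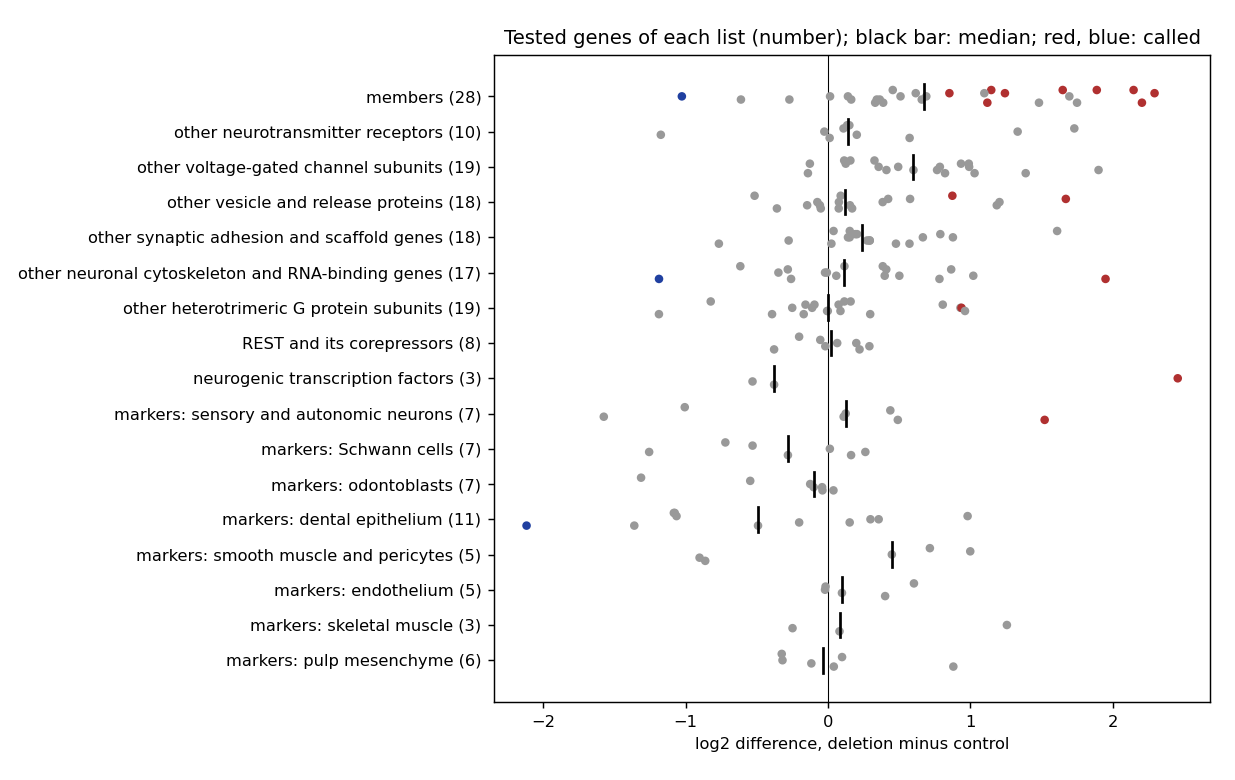
Log2 difference, deletion minus control, of each tested gene of the members, of the lists of related genes and of the markers, with the number tested beside each name and a black bar at the median. The members have a median of 0.67 and the list of other voltage-gated channel subunits 0.60, while medians of the marker lists lie between -0.49 and 0.45.

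Nerve markers were set beside the members. Of 14 markers of sensory and autonomic neurons on the array, 11 were Present on some array, and Prph, a filament of peripheral neurons, and Slc17a6 and P2rx3, found in subsets of sensory neurons, on none. Their summed signal ran from 2254 to 2756 in control and from 2675 to 2868 in deletion, ranges that overlapped. Of 7 tested, Calcb alone rose, with 224, 308 and 201 in control and 531, 894 and 692 in deletion (limma adjusted p = 0.0182). Its call ended without control replicate 3 (0.0592), deletion replicate 2 (0.0663) or deletion replicate 3 (0.0694). Calcb encodes a form of the neuropeptide CGRP. Tac1, the gene of substance P, had 949, 544 and 334 in control and 248, 324 and 81.0 in deletion (limma adjusted p = 0.178; blocked by replicate number, 0.00484). Of 14 Schwann cell markers, 10 were Present on some array and Mag, Gfap, Cdh19 and Foxd3 on none. Their summed signal was 4708 to 7096 in control and 5410 to 6710 in deletion, and none of 7 tested was called. Of the 7, 3 had higher means in deletion and 4 lower, from -1.26 for Fabp7 to 0.26 for Pmp22 on the log2 scale. The median log2 difference of the Schwann cell markers was -0.997 between the replicate 1 arrays, against 0.16 between the other 4.

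Among the other cell types, smooth muscle and pericyte markers summed to between 10503 and 13081 in control and between 11158 and 16159 in deletion, with Myh11, Cnn1 and Des Present on no array. Endothelial markers summed to 1551 to 3082 in control and 2549 to 2712 in deletion, and skeletal muscle markers to 423 to 808 and 458 to 1359. Odontoblast markers summed to 118546 to 152781 in control and 114234 to 138917 in deletion, and those of pulp mesenchyme to 162095 to 197192 and 160215 to 203394. None of the 26 tested genes of these 5 lists was called. The replicate block called 6.44% of all genes higher and 4.19% lower. With it, 2 smooth muscle and pericyte markers rose and 2 fell, 2 odontoblast markers fell and 1 marker of pulp mesenchyme rose. Among them Pdgfrb, a pericyte receptor, had a log2 difference of 0.999 (limma adjusted p = 0.25; blocked, 0.00145) and Acta2, smooth muscle actin, one of -0.86 (limma adjusted p = 0.0512; blocked, 0.00266). Dental epithelium differed most between the replicate 1 arrays, where its median log2 difference was -1.29, against 0.19 between the other 4. Of 11 epithelial markers 1 fell: Shh, a signal of the enamel organ, had 15606, 19141 and 24801 in control and 3118, 3949 and 7349.9 in deletion (limma adjusted p = 0.00931). With the replicate block 4 fell and 1 rose. The members' own medians were 0.78 for the first pair and 0.57 for the rest. The part of cell composition in the members' differences was not tested.

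The nearest protein-coding neighbours of the 10 called members and of Nefm, in the order of RefSeq genes, were looked up after the values were seen. Of 22 neighbours, 11 were tested and 1 was called, Rasgrp2 beside Nrxn2, where 2.65% of all genes tested were called. Rasgrp2, an exchange factor for small GTPases, rose from 186, 188 and 229.8 in control to 444, 551 and 460.5 in deletion (1.27 ± 0.21, log2, SE; limma adjusted p = 0.0168, and 0.0953 without control replicate 2). Its call also ended without deletion replicate 2 (0.0663), without deletion replicate 3 (0.0571) and with the mean of its probe sets (0.0594). Apbb2 and Limch1, on either side of Uchl1, had separate groups with deletion higher (0.65 ± 0.19 and 0.91 ± 0.29), as did Abcc3 beside Cacna1g (0.68 ± 0.28). Def8 beside Tubb3 had separate groups with deletion lower (-0.73 ± 0.24). Such patterns had shares of 12.2% and 8.64% over all genes tested. Apart from Rasgrp2, the remaining tested neighbours overlapped between groups. Kcna5 and Kcna6, the channel genes on either side of Kcna1, were not tested. Ina lay between Nt5c2 and Pcgf6, with log2 differences of 0.11 ± 0.19 and -0.04 ± 0.23.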

How the data were processed

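RNA from mouse dental pulp was hybridised to 6 expression arrays. Per the labels' protocols, DNase-treated total RNA was amplified first as cDNA and then by repeated transcription in vitro, and such steps can skew levels. Per the submitters' processing notes the authors used MAS5. The deposited signal intensities are on a linear scale, and the mean of each array without its top and bottom 2% was 500.0. Detection calls came from the authors' deposited workbook, whose column names carry an initial for the group and no replicate number, so calls are counted per group; 12 further workbook columns were not used. The sources used here state no software version, scan date or build. The detection columns of some arrays of each group carry a run of digits in their names and others do not. Whether these digits are a date or mark a batch is not stated.

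Symbols came from the platform annotation, which can be old (34958 probe sets with 1 symbol, 932 with several, 9211 with none, and Entrez identifiers of 34754 found in RefSeq with no symbol altered). The 64 array controls were left out. The brightest probe set (mean log2 signal) stood for each gene, among those Present on at least 3 of 6 arrays (21614 kept). Signals under 1 were set to 1 and log2 taken. Deletion was set against control in limma 3.58.1 under R 4.3.3 (eBayes with intensity trend, two-sided, Benjamini-Hochberg over 12250 genes, 0.05), which was tested on simulated data. Where a group had no Present call, the floor was the lowest signal of probe sets Present on all 3 arrays of that group (10.5 to 15.5). Its level per array was the higher of its signal and this floor. Where the other group was Present on 3 arrays, the fold is a bound for that level only. For Gnao1, Nrxn2, Nefm, Phox2a and Cntn1 the control signals lay above the floor, so the fold equals that between the mean log2 signals.

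The members and lists were chosen with earlier results of these data known. Values are given for members that were called, Present on 3 arrays of 1 group and none of the other, or among the 3 with the largest difference in their role class, with other members named for contrast after their values were seen. Of each related list the named genes come from the 4 with the smallest p, and of each marker list from the 4 with the highest mean signal. Shh, Rasgrp2, the other neighbours and marker genes Present on no array were named after their values were seen. Deviations from the group mean correlated at 0.485, 0.189 and 0.286 between arrays numbered 1, 2 and 3. All exceed 0.1, so replicate number served as the block of an alternative fit. The labels state no pairing, and 2 crossed pairs reached 0.213 and 0.117, the first above the 0.189 of the arrays numbered 2. The block was thus picked from these same data, and its calls and adjusted p-values are a description only. The number of arrays limits the precision. Alternatives covered scaling, low signals, detection, probe sets, variance, weights, block and left-out arrays.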

Additional observations from a re-analysis of the deposited data

How the results depend on the processing

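Members called higher numbered 9. The count was 5 with quantile normalization, 4 with no detection filter, 2 among genes Present on all 6 arrays and 3 to 4 in the fits that left out 1 array; the filters change the number of genes tested, and the cause of the other shifts was not tested. It was 6 with the mean of probe sets, each probe set on its own or no intensity trend, 7 without both replicate 1 arrays, 9 with either treatment of low signals or the replicate block, and 11 with array quality weights, which added Cacna1c and Cacnb4. Tubb3, the member called lower, was called in each of these settings and in 1 of the 6 fits that left out an array, so that count ran from 0 to 1. Related genes that rose numbered 4: 2 with the mean of probe sets or no intensity trend, 12 with array quality weights or the replicate block, and 1 to 2 with an array left out. Those that fell numbered 1, against 3 with array quality weights or the replicate block, 2 with each probe set on its own, and 0 to 1 with an array left out. Over all genes 232 rose and 93 fell. With the replicate block 789 rose and 513 fell, with array quality weights 691 and 415, among genes Present on all 6 arrays 137 rose, with no intensity trend 51 fell and without both replicate 1 arrays 167 fell. With an array left out, 82 to 219 rose and 12 to 90 fell. The sign turned only in uncalled genes. For Nlgn2 the log2 difference was -0.022 with quantile normalization, -0.067 without control replicate 1, -0.050 without deletion replicate 3 and -0.027 without both replicate 1 arrays, with -0.067 to 0.085 over the arrays left out. For Scn1a it was -0.064 with quantile normalization, -0.12 with array quality weights, -0.034 without control replicate 1 and -0.19 without both replicate 1 arrays, with -0.034 to 0.33 over the arrays left out. Cacna1a was at 0.028 with the mean of probe sets and from -1.11 to 0.30 with an array left out (above 0 without deletion replicate 2), Stx1a from -0.00087 to 0.69 (below 0 without deletion replicate 3), and Stmn2 from -0.59 to 0.20 (above 0 without deletion replicate 1) and 0.050 without both replicate 1 arrays. Without both replicate 1 arrays Grik3 was at -0.040, Hdac1 at 0.013 and Rest at -0.018. With an array left out Ehmt2 ran from -0.059 to 0.53 and Isl1 from -0.98 to 0.098, both turning without deletion replicate 1. The cause was not tested. Members Present on fewer than 3 arrays were not tested.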
